A study of Mus musculus with 10 samples.

Results

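Inhibitory checkpoint receptors and ligands were followed in mouse B cells separated by whether they secreted the anti-inflammatory cytokine IL-10. The genes were Ctla4, Lag3, Btla, Pdcd1 and Tigit, which encode receptors, and Cd274, Pdcd1lg2 and Cd200, which encode ligands. Every array probe whose name, ignoring case, was the symbol of one of these genes, or Vstm3 for Tigit, was taken. This gave 9 of the 45281 probes, for 7 of the 8 genes. Cd200 had 3 probes, Tigit had none in the table used here, and each other gene had 1.

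B cells came from the spleen of C57BL/6 mice and were exposed for 5 h to 10 µg/ml of LPS, 50 ng/ml of PMA and 500 ng/ml of ionomycin. The IL-10+ cells (5 arrays) and the IL-10- cells (3 arrays) were isolated from stimulated cells with a secretion assay and flow sorting, and total B cells (2 arrays) were profiled beside them. The stimulation is given in text that all samples share, so that total B cells received it rests on that shared text, and no label says whether they passed through the assay or the sorter. The sources used here give no age, sex or pooling of the mice. They do not say that each replicate is another mouse, so the p-values cover only the spread between these arrays, which may be technical.

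Checkpoint receptors carry or recruit signals that dampen activation of the lymphocyte that bears them, and their ligands deliver those signals from neighbouring cells. CTLA-4 competes with the activating receptor CD28 for CD80 and CD86, LAG-3 binds MHC class II, and PD-1 binds PD-L1 and PD-L2, the products of Cd274 and Pdcd1lg2. They are best known from T cells, but activated B cells can carry several of them and are a source of PD-L1, PD-L2 and CD200.

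The promoter sequences of Ctla4, the receptor gene with the strongest call between the sorted fractions, and of Pdcd1lg2, a ligand gene that was not called between them, are shown for comparison. They are the 250 bases before each gene's start in RefSeq, build GRCm38.p6, on the plus strand, at chr1:60908775-60909024 for Ctla4 and chr19:29410669-29410918 for Pdcd1lg2. No RefSeq gene overlaps either window, and the arrays did not measure these regions. Capitals mark the letters GGAAA, the core of NFAT sites, or TTTCC, the same core on the other strand.
Ctla4: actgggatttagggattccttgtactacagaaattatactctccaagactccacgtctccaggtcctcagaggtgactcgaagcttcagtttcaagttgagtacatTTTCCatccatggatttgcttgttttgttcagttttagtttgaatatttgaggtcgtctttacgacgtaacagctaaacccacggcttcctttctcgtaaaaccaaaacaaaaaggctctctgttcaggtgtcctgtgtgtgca
Pdcd1lg2: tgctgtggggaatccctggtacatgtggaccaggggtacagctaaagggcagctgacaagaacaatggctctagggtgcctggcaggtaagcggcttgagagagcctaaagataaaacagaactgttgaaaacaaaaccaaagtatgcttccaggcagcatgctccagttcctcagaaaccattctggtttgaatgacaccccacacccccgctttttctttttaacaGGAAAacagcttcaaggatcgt
Each window holds 1 match, beginning 144 bases before the start of Ctla4 and 22 bases before that of Pdcd1lg2, and 55.6% of 32851 windows of this length hold at least 1. RefSeq windows were found for 7 of the 8 genes, all but Lag3. The same core was matched once in Cd274, 2 times each in Pdcd1 and Tigit, and not in Btla or Cd200. Both strands of all 7 windows were also searched for the AP-1 letters TGANTCA and the letters TTCNNNGAA of GAS. Neither was found, against 6.75% of all windows for AP-1 and 7.02% for GAS. Such matches describe letters only, and no match says nothing about whether a factor acts on the gene.

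Each array detected 13910 to 15610 probes, with 13910 to 14313 on IL-10- arrays and at least 14389 on every other array. The dimmest detected probe stood at 5.67 to 5.78 log2 on IL-10- arrays and at 5.65 or lower on the others. The part of this in genes that no IL-10- array detected was not tested. Precision is also limited by how few arrays there are. IL-10+ replicates 1 to 3 and IL-10- replicates 2 and 3 were hybridised on slide 1, and the other arrays, including both of total B cells, on slide 2. Il10 checked the labels. Its mean log2 level was 13.18 ± 0.28 on the 5 IL-10+ arrays, 7.75 ± 0.19 on the 3 IL-10- arrays and 10.26 ± 0.53 on the 2 total B arrays (SD). Levels below are normalised log2 intensities, and a probe counts as detected at a detection p under 0.01. Of the 9 checkpoint probes, 8 were detected on at least 2 arrays and were tested with 16496 probes in all. Standard errors between beads were 2.52% to 7.87% of the intensity for these 8 probes, on detected arrays.

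IL-10+ cells were set against IL-10- cells to ask what distinguishes B cells that release the cytokine. Ctla4 and Lag3 were higher in IL-10+ cells, 6.32-fold and 3.11-fold, and Btla was 1.83-fold lower. The other 5 tested probes, for Cd274, Pdcd1lg2 and Cd200, did not pass limma's test at an adjusted p of 0.05. Thus 2 of 8 probes were called higher and 1 lower, against 8.72% and 7.98% of all tested probes. Their median difference was -0.05 log2, against -0.02 over all tested probes. Arrays of both groups did not overlap for 2 probes that were higher and 2 that were lower, where 11.4% and 12.2% of all tested probes showed this.

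Against total B cells, IL-10+ cells had higher levels of Lag3, Ctla4 and 2 Cd200 probes and a lower level of Cd274, or 4 of 8 probes higher and 1 lower, where 10.8% and 9.83% of all tested probes were called. The median difference of the 8 probes was 1.17 log2, against -0.01 over all. In IL-10- cells, Lag3, Btla and 2 Cd200 probes were higher than in total B cells, or 4 of 8 probes, where 6.87% of all tested probes were called higher. By limma, 0 of the 8 were called lower after adjustment, where 6.35% of all tested probes were. With 8 probes, a count of 0 lies near that share. At an unadjusted limma p of 0.05 the count was also 0, and the share of all tested probes at that threshold was not computed. The median difference was 1.12 log2, against -0.01 over all. Both comparisons share the total B arrays, and Cd200 counts with 3 probes of 1 gene. No label gives the handling of total B cells, so assay and sorting cannot be told apart from IL-10 status in these comparisons.

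**Figure D1:**
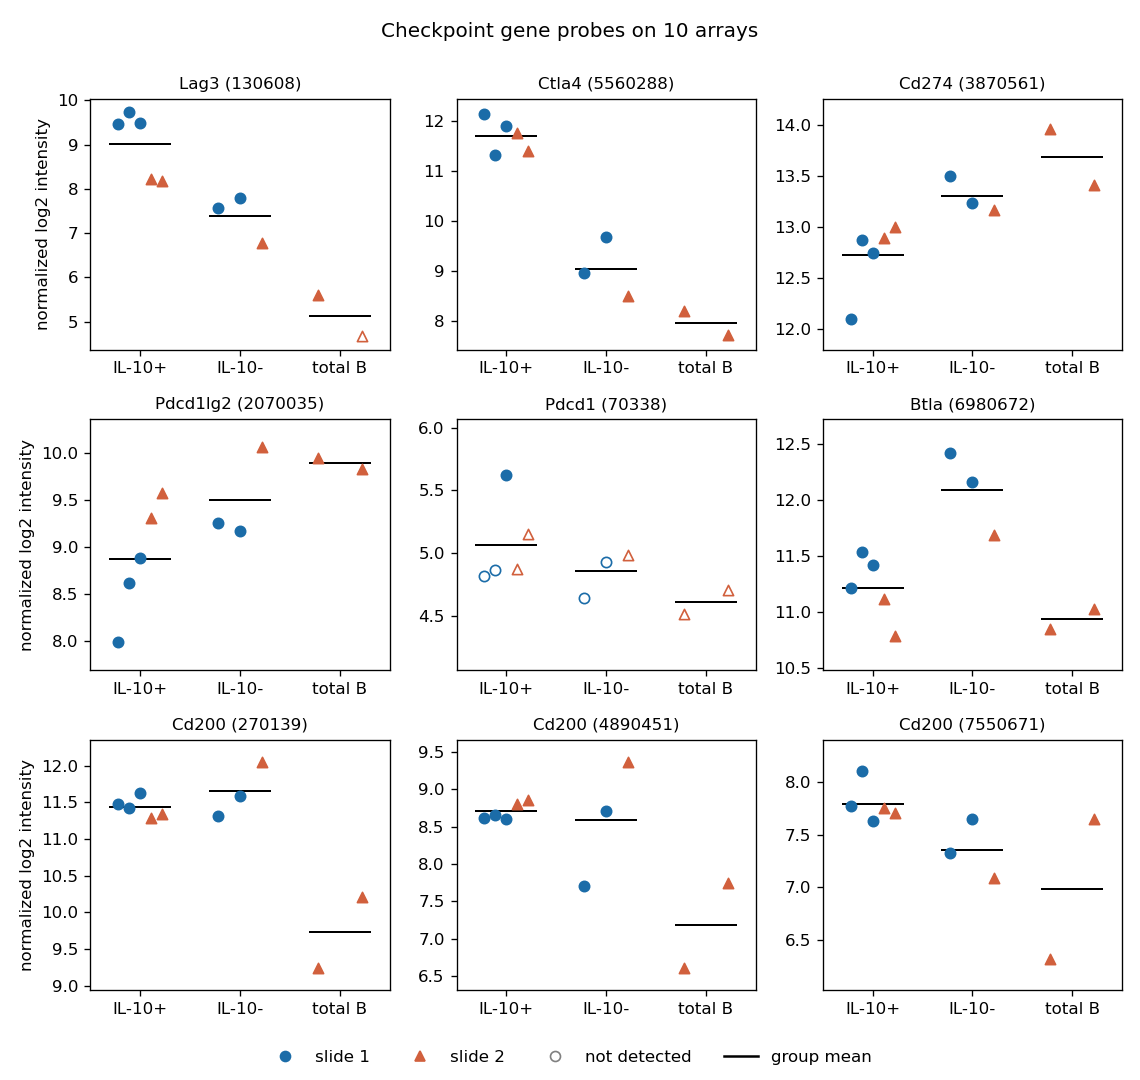
Normalised log2 intensity of the 9 checkpoint probes on each array, 1 panel per probe, with IL-10+ arrays on the left, IL-10- arrays next and total B arrays on the right. Circles are slide 1, triangles slide 2, open symbols arrays where the probe was not detected, and lines group means; axes differ between panels. The Ctla4 arrays of IL-10+ cells lie at 11.32 and above and all others at 9.68 and below, whereas for Cd274 the IL-10+ arrays lie lowest.

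Ctla4 encodes the receptor that takes CD80 and CD86 away from CD28. Its level was 12.15, 11.32, 11.90, 11.77 and 11.41 in IL-10+ replicates 1 to 5, 8.96, 9.68 and 8.51 in IL-10- replicates 2, 3 and 5, and 8.21 and 7.73 in total B replicates 1 and 2. Each IL-10+ array lay above each IL-10- array, and each IL-10- array above both total B arrays. The deposited intensities, before normalisation, were 2469.3 to 5810.2 on IL-10+ arrays, 335.0 to 596.7 on IL-10- arrays and 267.9 and 459.9 on total B arrays, so IL-10+ arrays stood apart there too. There the IL-10- and total B arrays overlapped.

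Between IL-10+ and IL-10- cells Ctla4 differed by 2.66 log2 (SE 0.27, 95% interval 2.06 to 3.26), with a limma adjusted p of 0.000219, and ranked 65 by size of difference among all tested probes. The difference was 2.47 within slide 1 and 3.08 within slide 2. Against total B cells it was 3.74 (SE 0.31, 13.4-fold, adjusted p 6.26e-05) and 3.62 within slide 2, the slide that holds both total B arrays. Both calls held under each alternative that was run. IL-10- cells exceeded total B cells by 1.08 (SE 0.34, 95% interval 0.33 to 1.84), and this did not pass (adjusted p 0.0595). It was 1.35 and passed when IL-10- replicate 5 was left out (adjusted p 0.0250) and also passed with an offset of 50 (0.0491), and within slide 2, where that replicate is the lone IL-10- array, it was 0.54. In bulk samples, fewer cells with a transcript and less RNA per cell cannot be told apart, here and for the values that follow.

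Lag3 encodes a receptor for MHC class II that has also been described on plasma cells that make IL-10 in mice. Levels were 9.48, 9.73, 9.48, 8.23 and 8.19 in IL-10+ replicates 1 to 5, 7.57, 7.79 and 6.79 in IL-10- replicates 2, 3 and 5, and 5.59 and 4.67 in total B replicates 1 and 2. The 3 groups did not overlap, in the order IL-10+, IL-10- and total B cells. Total B replicate 2 was not above background, at a detection p of 0.280, and replicate 1 was detected at a p of 0.00855. Within each sorted fraction the slide 2 arrays were the lowest.

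For Lag3 the IL-10+ arrays exceeded the IL-10- arrays by 1.64 log2 (SE 0.41, 95% interval 0.73 to 2.54, adjusted p 0.0220), by 1.88 within slide 1 and by 1.42 within slide 2. The call was lost when IL-10- replicate 2 was left out (adjusted p 0.0504) or IL-10- replicate 5 (0.0684), and within slide 2 alone (0.0717). Against total B cells the difference was 3.89 (SE 0.47, 14.8-fold, adjusted p 0.000378). It was 3.07, or 8.42-fold, within slide 2, and 10.5-fold with the undetected array raised to its lowest detected signal. IL-10- cells exceeded total B cells by 2.25 (SE 0.51, 4.76-fold, adjusted p 0.0188), by 1.66 within slide 2 and 3.39-fold with that array raised. That call ended without total B replicate 1, at 0.0538, and without replicate 2, at 0.145. With no background correction the differences from total B cells were 2.03 for IL-10+ cells, which passed, and 0.89 for IL-10- cells, which did not (adjusted p 0.108).

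In the fit with slide as a block, the slide term, which was read after seeing the data, put Lag3 1.19 log2 lower on slide 2 than on slide 1 (SE 0.20), with an adjusted p of 0.0585. It put Pdcd1lg2 0.91 higher (SE 0.19), with an adjusted p of 0.0980. Neither passed, and 0.0546% of all tested probes did. Total B cells were on slide 2 only.

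Btla encodes a receptor that binds HVEM and carries inhibitory motifs in its tail, and B cells express it at rest. Levels were 11.22, 11.54, 11.42, 11.12 and 10.79 in IL-10+ replicates 1 to 5, 12.42, 12.16 and 11.69 in IL-10- replicates 2, 3 and 5, and 10.85 and 11.03 in total B cells. Every IL-10- array lay above all the others, while IL-10+ and total B arrays overlapped. The deposited intensities did not separate the sorted fractions, at 2204.4 to 3765.0 on IL-10+ arrays and 2883.9 to 3886.8 on IL-10- arrays.

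Relative to IL-10- cells, Btla fell by 0.87 log2 in IL-10+ cells (SE 0.20, 95% interval -1.32 to -0.43, adjusted p 0.0161), and the difference was -0.90 within slide 1 and -0.74 within slide 2. The call ended when IL-10- replicate 2 was left out, at 0.0659, and within slide 2 alone, at an adjusted p of 0.123. With arrays scaled to a common median it was -0.35, with an adjusted p of 0.294, where the median of all tested probes stood at 0.49. IL-10- cells exceeded total B cells by 1.15 (SE 0.25, 2.22-fold, adjusted p 0.0166), and by 0.75 within slide 2, where the adjusted p was 0.0855. This call also ended without total B replicate 1, at 0.114, without replicate 2, at 0.0727, with arrays scaled to a common median, at 0.91 and 0.0891, and when only these arrays were fitted, at 0.0643. IL-10+ cells and total B cells differed by 0.28 (SE 0.23, adjusted p 0.436), and by 0.02 within slide 2.

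Pdcd1, the gene of PD-1, was above background only on the array of IL-10+ replicate 3, at an intensity of 174.2 and a detection p of 0.00641. Its log2 signal was 4.82, 4.86, 5.62, 4.87 and 5.15 in IL-10+ cells, 4.65, 4.93 and 4.99 in IL-10- cells and 4.52 and 4.70 in total B cells, and apart from that array these values lie at the level of undetected probes. The dimmest detected probe of an array stood at 5.39 to 5.78, so differences in Pdcd1 below that level were not detectable. The probe was not tested and no fold is given. Tigit, a receptor for the poliovirus receptor Pvr, had no probe.

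**Figure D2:**
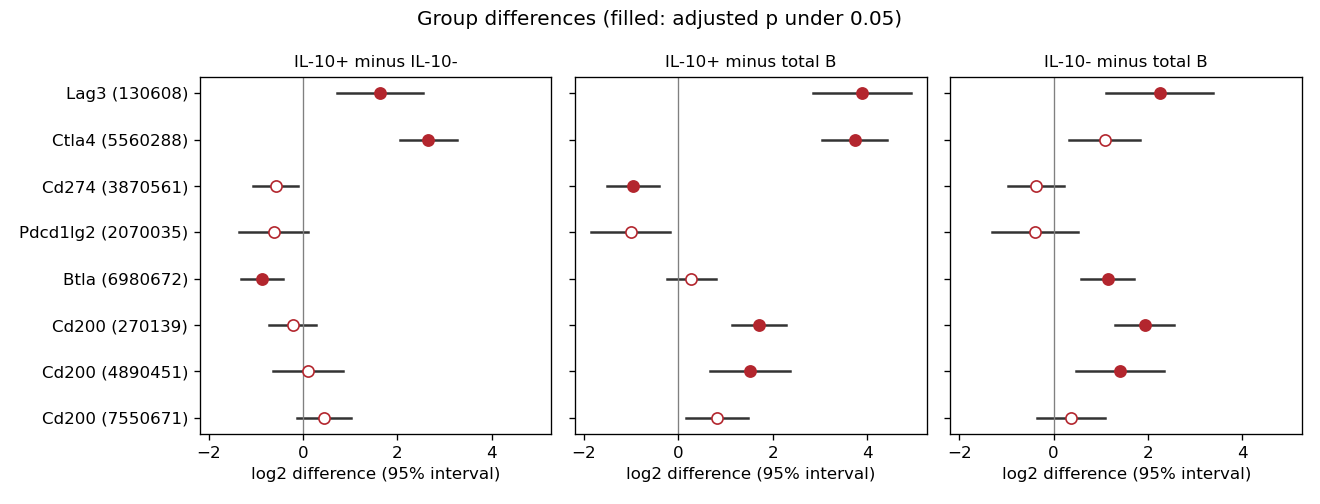
Log2 difference of the 8 tested checkpoint probes, with 1 panel for IL-10+ minus IL-10- cells, 1 for IL-10+ minus total B cells and 1 for IL-10- minus total B cells. Points are limma estimates with 95% intervals, filled where the adjusted p was under 0.05. The estimates of Ctla4 and Lag3 are above 0 and those of Cd274 and Pdcd1lg2 below 0 in each panel, but not all of them passed.

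Cd274 encodes PD-L1, through which B cells can engage PD-1 on T cells. Levels were 12.10, 12.87, 12.74, 12.89 and 13.00 in IL-10+ replicates 1 to 5, 13.50, 13.23 and 13.17 in IL-10- replicates 2, 3 and 5, and 13.95 and 13.41 in total B replicates 1 and 2. All IL-10+ arrays lay below all IL-10- and total B arrays, and by mean level IL-10+ cells were lowest, IL-10- cells next and total B cells highest. IL-10- and total B arrays overlapped. IL-10+ replicate 1 stood apart from the other IL-10+ arrays on the low side. The deposited intensities, before normalisation, did not separate the groups. They were 5565.5 to 11953.4 on IL-10+ arrays, 6427.5 to 10526.6 on IL-10- arrays, and 8211.8 and 17628 on total B arrays.

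Against total B cells, Cd274 fell by 0.96 log2 in IL-10+ cells (SE 0.25, 95% interval -1.51 to -0.42, 1.95-fold lower, adjusted p 0.0191). This call ended without total B replicate 1, at a difference of -0.69 and an adjusted p of 0.212, and within slide 2, at -0.74 and 0.0679. It also ended with slide as a block, at 0.0540, and with arrays scaled to a common median, at 0.217. The difference between IL-10+ and IL-10- cells was -0.58 (SE 0.22, 95% interval -1.06 to -0.11) and did not pass, at an adjusted p of 0.0899. It was -0.80 within slide 1 and -0.22 within slide 2, and -0.13 with arrays scaled to a common median. IL-10- and total B cells differed by -0.38 (SE 0.27, adjusted p 0.379).

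Pdcd1lg2 encodes PD-L2, the second ligand of PD-1, and lies next to Cd274 on chromosome 19 in the RefSeq gene order. Levels were 7.99, 8.62, 8.88, 9.31 and 9.58 in IL-10+ replicates 1 to 5, 9.26, 9.18 and 10.06 in IL-10- replicates 2, 3 and 5, and 9.95 and 9.83 in total B cells. IL-10+ arrays overlapped with IL-10- arrays but lay below both total B arrays. In both sorted fractions the slide 2 arrays were the highest.

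None of the 3 comparisons of Pdcd1lg2 passed. IL-10+ cells differed from IL-10- cells by -0.62 (SE 0.33, 95% interval -1.35 to 0.11, adjusted p 0.221), with -0.72 within slide 1 and -0.62 within slide 2. With slide as a block this difference was -0.68 (SE 0.19) and passed, at an adjusted p of 0.0297. From total B cells IL-10+ cells differed by -1.01 (SE 0.38, 95% interval -1.85 to -0.18, adjusted p 0.0828), but by -0.44 within slide 2. That difference passed when IL-10+ replicate 5 was left out, at 0.0436. IL-10- and total B cells differed by -0.39 (SE 0.41, adjusted p 0.576).

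**Figure D3:**
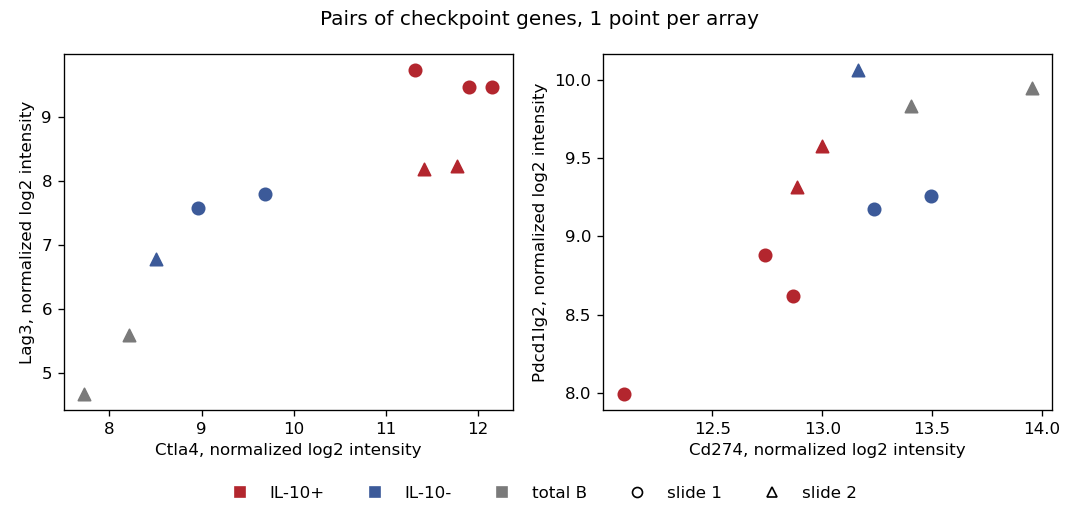
Normalised log2 intensity of Lag3 against Ctla4, on the left, and of Pdcd1lg2 against Cd274, on the right, with 1 point per array, coloured by group and shaped by slide. The 3 groups separate along both axes for Ctla4 and Lag3, with the slide 2 arrays lowest in Lag3 within IL-10+ and IL-10- cells. The IL-10+ arrays lie lowest in Cd274, and the slide 2 arrays highest in Pdcd1lg2 within each sorted fraction.

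The IL-10+ and IL-10- arrays of replicates 2, 3 and 5 form pairs by their numbers. Ctla4 was higher in the IL-10+ member of each pair, by 2.36, 2.22 and 2.90 log2 in replicates 2, 3 and 5, and Lag3 by 2.16, 1.68 and 1.40. Btla was lower in the IL-10+ member of each pair, with differences of -0.88, -0.74 and -0.90. Cd274 differed by -0.63, -0.50 and -0.17, and Pdcd1lg2 by -0.64, -0.30 and -0.48. A fit with the pair as a block changed none of the calls of checkpoint probes between these groups.

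Cd200 encodes a membrane ligand that restrains myeloid cells through the receptor CD200R, and it neighbours Btla on chromosome 16. Its probe 270139 had levels of 11.48, 11.43, 11.62, 11.28 and 11.35 in IL-10+ replicates 1 to 5, 11.31, 11.59 and 12.06 in IL-10- replicates 2, 3 and 5, and 9.24 and 10.22 in total B replicates 1 and 2. Both total B arrays lay below all 8 sorted arrays, and the sorted fractions overlapped. This placing of total B cells below every sorted array was also found for Ctla4 and Lag3, or 3 of 8 tested probes, against 10.9% of all tested probes. None of the 8 had both total B arrays above all sorted arrays, which 11.9% of all did.

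On that probe IL-10+ cells exceeded total B cells by 1.71 log2 (SE 0.26, 3.27-fold, adjusted p 0.00138) and IL-10- cells exceeded them by 1.93 (SE 0.28, 3.80-fold, adjusted p 0.00322). Within slide 2 the differences were 1.59 and 2.33. Between IL-10+ and IL-10- cells the difference was -0.22 (SE 0.23, 95% interval -0.72 to 0.28, adjusted p 0.540), at 0.06 within slide 1 and -0.74 within slide 2.

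The other 2 Cd200 probes gave dimmer signals. Probe 4890451 ranged from 8.60 to 8.85 in IL-10+ cells, from 7.70 to 9.36 in IL-10- cells and 6.61 and 7.75 in total B cells. It was higher than in total B cells by 1.53 in IL-10+ cells (SE 0.39, adjusted p 0.0181) and by 1.41 in IL-10- cells (SE 0.42, adjusted p 0.04996), although IL-10- and total B arrays overlapped. Without total B replicate 1 these were 0.96 and 0.84, with adjusted p of 0.232 and 0.351. The IL-10- call also ended without each other array of that comparison except IL-10- replicate 2.

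Probe 7550671 ranged from 7.63 to 8.11 in IL-10+ cells, from 7.09 to 7.65 in IL-10- cells and 6.32 and 7.65 in total B cells, and passed in no comparison. Against total B cells its difference was 0.81 in IL-10+ cells (adjusted p 0.0787) and 0.37 in IL-10- cells (adjusted p 0.489). Between IL-10+ and IL-10- cells the 3 probes differed in sign, at -0.22, 0.12 and 0.44 for probes 270139, 4890451 and 7550671, and none passed. With arrays scaled to a common median, where the median of all tested probes stood at 0.49, probe 270139 changed sign, to 0.35 (adjusted p 0.390). Probe 7550671 then passed, at 1.06 between the sorted fractions (adjusted p 0.00743) and at 1.06 against total B cells in IL-10+ cells (0.0290), and it also passed there at 1.48 without total B replicate 2 (0.00777). The sources used here do not place the probes on the transcript.

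**Figure D4:**
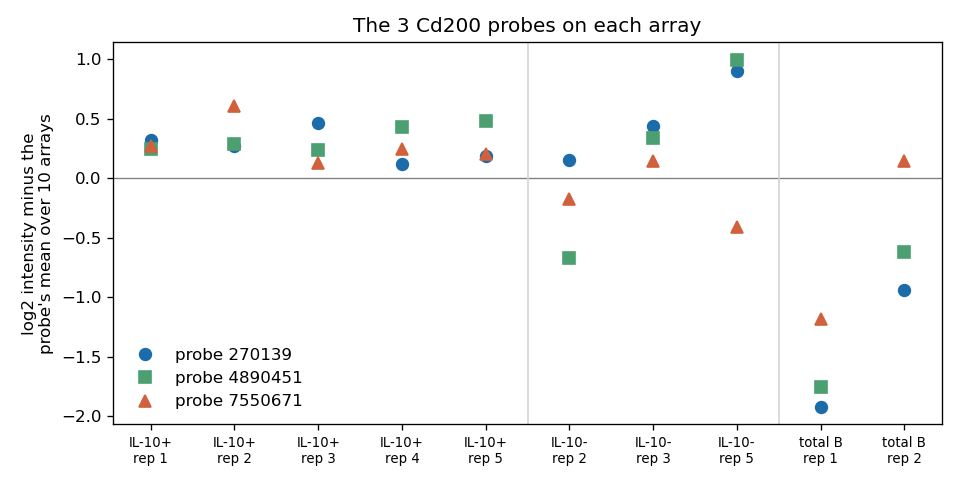
Log2 intensity of the 3 Cd200 probes on each array, minus each probe's mean over the 10 arrays, with IL-10+ arrays on the left, IL-10- arrays next and total B arrays on the right. Points are single arrays. Probes 270139 and 4890451 lie below their mean on both total B arrays, and probe 7550671 only on total B replicate 1.

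The genes whose level over the 10 arrays followed each checkpoint gene most closely were taken by Pearson correlation among 8556 genes. The arrays fall into 3 groups and share slides, so these values describe a shared order of groups. Lag3 was followed by Dcbld1 (0.979), Oasl1 (0.978), which is induced by interferon, and Sh3bgrl (0.976). Ctla4 was followed by Smim10l1 (0.981), Cfp (0.980), which encodes the complement regulator properdin, and the peptidase gene Ece1 (0.978). Cd274 was followed by Zxda (0.963), Sh3gl1 (0.962) and Ifngr2 (0.958), a chain of the interferon-gamma receptor.

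Pdcd1lg2 was followed by the fatty acid ligase gene Acsl3 (0.977), the DNA methyltransferase gene Dnmt3b (0.977) and the replication gene Gins3 (0.952). Btla was followed by Adamts6 (0.969), the lipase gene Pnpla2 (0.958) and Bank1 (0.951), a B cell adaptor. For Cd200, by its brightest probe, the genes were Aco1 (0.977), Zfp28 (0.968) and Tapbpl (0.963).

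Genes that bind or accompany the checkpoint molecules were described from lists, each gene by its brightest tested probe. The counts between IL-10+ and IL-10- cells stand beside 8.72% of all tested probes called higher and 7.98% called lower. Of 18 partners of the checkpoint molecules, 8 were measured, of which 2 passed as higher and 1 as lower in IL-10+ than IL-10- cells, with a median difference of 0.18 log2 against -0.02 over all tested probes. Cd80, a ligand of CTLA-4 and CD28, was at least 3.28-fold higher in IL-10+ cells, since no IL-10- array detected it (adjusted p 2.58e-04). A dimmer Cd80 probe was higher by 0.70 log2 (adjusted p 0.0441). H2-Ab1, an MHC class II chain and so part of the ligand of LAG-3, was 1.44-fold lower, by 0.53 log2 (SE 0.11, adjusted p 0.0115). Its other probes stood at -0.88, which passed (adjusted p 0.00669), and -0.33, which did not (0.265). Tnfsf14, a ligand of HVEM, also passed, by 0.81 log2 (adjusted p 0.0153), but no IL-10- array detected it and its IL-10+ mean was not above the lowest detected signals there. Its call ended in 2 of 8 omissions of an array, at up to 0.0623 without IL-10- replicate 2, and the replicate block took Tnfsf14 to 0.0581 and H2-Ab1 to 0.0607.

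Among 18 other checkpoint receptors and ligands, 9 were measured, with 4 higher and 2 lower in IL-10+ than IL-10- cells and a median of -0.13. Nt5e, the ectoenzyme CD73 that makes adenosine, was 8.88-fold higher (3.15 log2, SE 0.51, adjusted p 0.00276). Tnfrsf18, the costimulatory receptor GITR, was 2.52-fold higher (adjusted p 0.00373). Both were detected on 2 of 3 IL-10- arrays. Sirpa, the receptor of CD47, was at least 1.86-fold higher (adjusted p 1.51e-04), with no IL-10- array detected. Icosl, the ligand of the costimulatory receptor ICOS, was 2.09-fold lower (adjusted p 0.00268).

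The list called inhibitory receptors of B cells holds 14 genes, not all of which inhibit, since Fcrl1 encodes an activating receptor. Of these, 10 were measured, with 2 higher, 2 lower and a median of -0.18. Fcrl5, an Fc receptor-like protein, was at least 3.23-fold higher in IL-10+ cells (adjusted p 7.37e-05), and Cd22, a sialic acid-binding inhibitor of the B cell receptor, was 2.43-fold lower (adjusted p 5.10e-04). Cd300a, detected on 1 of 5 IL-10+ arrays, was 1.66-fold lower (adjusted p 0.0308), or 1.45-fold with undetected arrays raised to their lowest detected signal, a call that ended in 4 of 8 omissions, at up to 0.115 without IL-10- replicate 2. Fcrl1 was 1.51-fold higher (adjusted p 0.0499) on its brightest probe and stood at -0.11 and 0.50 log2 on others, which did not pass. The Fcrl1 call ended in 7 of 8 omissions, at up to 0.135 without IL-10- replicate 5, and with the replicate block, at 0.198.

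Of 16 genes of inhibitory signalling, 11 were measured and 1 was higher in IL-10+ cells, with a median of -0.13. It was Ptpn22, a phosphatase of antigen receptor signalling, at 1.67-fold (adjusted p 0.0166), a call that ended at 0.0666 without IL-10- replicate 2. Of 26 factors tied to transcription of checkpoint genes, 21 were measured, with 3 higher, 5 lower and a median of -0.31. Prdm1, the plasma cell factor Blimp-1, was at least 2.02-fold higher (adjusted p 0.00729). Tbx21, the factor T-bet, was 3.32-fold lower (adjusted p 0.0164) and Myc, a transcription factor of cell growth, 2.14-fold lower (adjusted p 0.0253). The Myc call ended in 5 of 8 omissions, at up to 0.0836 without IL-10- replicate 2.

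For 10 genes of PD-L1 protein stability and trafficking, 8 were measured and limma called 0 in either direction between IL-10+ and IL-10- cells, with 2 at an unadjusted p under 0.05 and a median of -0.06. These were Spop, at -0.44 log2 (adjusted p 0.0503), and Stub1, at -0.35 (adjusted p 0.0852), both ubiquitin ligase components. Another Stub1 probe stood at -1.03, with an adjusted p of 0.00272. Of 13 genes described in LAG3+ plasma cells, 12 were measured, with 7 higher, 0 lower and a median of 0.85. This list holds Lag3, Cd200, Cd274, Pdcd1lg2 and Il10 themselves, and Il10 set the sort. It also holds Sdc1, Prdm1, Irf4, Xbp1, Mzb1 and Jchain, which are counted again among the plasma cell markers below, so the lists are not separate. Its other leading genes were Mzb1, an endoplasmic reticulum protein of antibody-secreting cells, at 3.87-fold (adjusted p 6.14e-04), Tnfrsf13b, the receptor TACI, at 1.78-fold (adjusted p 0.00269), and Xbp1, a factor of the secretory pathway, at 1.83-fold (adjusted p 0.00528).

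Scaling arrays to a common median ended the calls of lower levels of H2-Ab1 (adjusted p 0.478), Icosl (0.135), Cd22 (0.0695), Cd300a (0.437), Tbx21 (0.0515) and Myc (0.165), each at a negative difference still. Calls of higher levels of the named genes were kept under that scaling. It moved the list medians with that of all tested probes, at 0.49, to 0.35 for other checkpoint genes, 0.45 for inhibitory receptors of B cells, 0.51 for signalling, 0.28 for the factors and 0.52 for PD-L1 stability, so those below 0 under quantile normalisation were above 0.

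**Figure D5:**
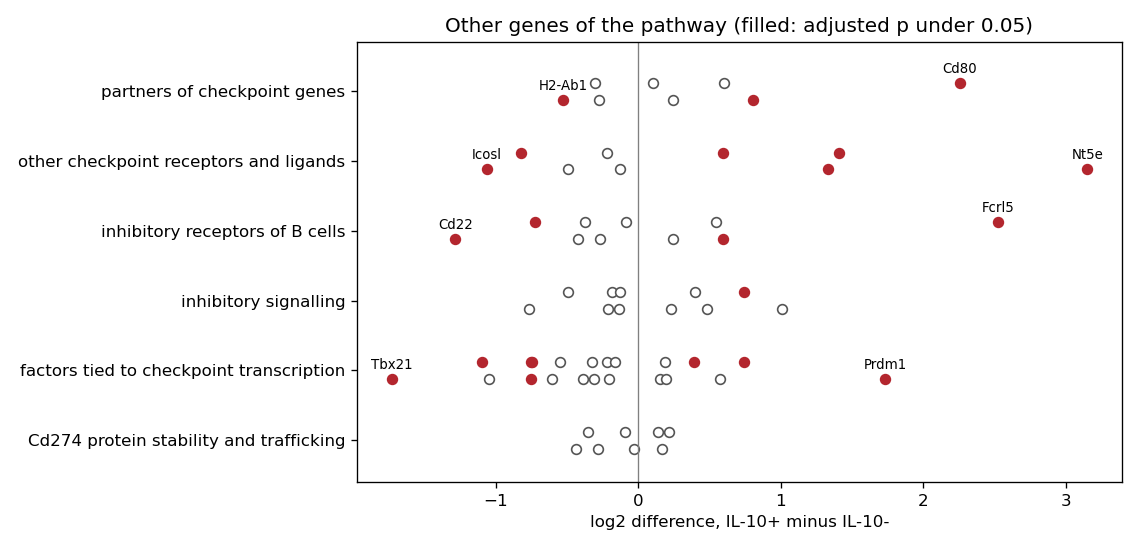
Measured log2 difference between IL-10+ and IL-10- cells, on the horizontal axis, for each measured gene of 6 lists, by its brightest tested probe. Points are genes, filled where the adjusted p was under 0.05, and the outermost called genes are named. Cd80, Nt5e, Fcrl5 and Prdm1 lie farthest to the right among called genes of their lists, and H2-Ab1, Icosl, Cd22 and Tbx21 farthest to the left.

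Against total B cells the lists were counted in the same way. In IL-10+ cells, where 10.8% of all tested probes were called higher and 9.83% lower, 3 of 8 partners, 5 of 9 other checkpoint genes, 3 of 10 inhibitory receptors of B cells and 2 of 11 signalling genes were called higher and 0 lower. For the factors it was 1 higher and 2 lower of 21, for PD-L1 stability 4 higher and 1 lower of 8, and for LAG3+ plasma cell genes 6 higher and 2 lower of 12. The median of the other checkpoint genes was 0.74 log2, against -0.01 over all tested probes. In IL-10- cells, where 6.87% of all tested probes were called higher and 6.35% lower, the counts over the same measured genes were 2 higher and 1 lower for partners, 2 and 0 for other checkpoint genes, 1 and 1 for inhibitory receptors of B cells and 3 and 0 for signalling. They were 1 and 2 for the factors, 1 and 0 for PD-L1 stability and 2 and 2 for LAG3+ plasma cell genes. Most of these counts are too small to set against those shares.

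Markers of the labelled cell type and of others were measured beside these genes. All 7 B cell markers with a probe were kept, and their summed linear level was 10180 to 12420 in IL-10+ cells, 12620 to 14960 in IL-10- cells and 10590 to 12810 in total B cells. Of these, Cd22, Ms4a1 and Cd79b were lower in IL-10+ than IL-10- cells (adjusted p 5.10e-04, 0.00423 and 0.0140), in the direction of Btla. With arrays scaled to a common median these 3 had adjusted p of 0.0695, 0.845 and 0.642. Of 7 plasma cell markers, 5 were kept and 4 were higher in IL-10+ cells, namely Mzb1, Xbp1, Prdm1 and Jchain (Jchain at an adjusted p of 0.0121, or 0.0607 under the replicate block). Their summed level was 17630 to 21470 in IL-10+ cells, 15950 to 19000 in IL-10- cells and 15230 to 18560 in total B cells. Sdc1 and Tnfrsf17, which define the type, were not kept.

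Ctla4 and Lag3 are also T cell genes. Of 13 T cell markers with a probe, 9 were not detected on at least 2 arrays, among them Cd3d, Cd3e, Cd247, Cd4, Cd8a, Thy1 and Cd28. The 4 that were kept, Cd3g, Cd8b1, Lck and Lat, had a summed level of 2793 to 4453 in IL-10+ cells, 2397 to 3132 in IL-10- cells and 2265 to 2368 in total B cells. Cd3g passed as higher in IL-10+ than IL-10- cells (adjusted p 0.00513), a call that the replicate block ended, at 0.0536. No IL-10- array detected it, and its IL-10+ mean was not above the lowest detected signals there. Against total B cells, 2 of the 4 kept markers were called higher and 0 lower in IL-10+ cells, where 10.8% and 9.83% of all tested probes were called. In IL-10- cells 0 of the 4 were called in either direction against total B cells. The part of these markers in the Ctla4 and Lag3 results was not tested. For regulatory T cells, 4 of 6 markers were kept, Foxp3, Il2ra, Tnfrsf18 and Tnfrsf4, with a summed level of 3665 to 4141 in IL-10+ cells, 4248 to 5342 in IL-10- cells and 3488 to 3661 in total B cells. Only Tnfrsf18 among them was called between the sorted fractions.

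Of 8 dendritic cell markers, Zbtb46, Siglech and Ccr7 were kept, with a summed level of 3095 to 4981 in IL-10+ cells, 5307 to 6858 in IL-10- cells and 6258 to 7435 in total B cells, while Itgax, Flt3, Xcr1, Clec9a and Cd209a were not. Siglech was 2.03-fold lower in IL-10+ than IL-10- cells (adjusted p 0.00258), or 0.292 with arrays scaled to a common median, and Zbtb46 and Ccr7 did not pass. Against total B cells, 2 of the 3 kept markers were called lower and 0 higher in IL-10+ cells, where 9.83% and 10.8% of all tested probes were called. In IL-10- cells 0 of the 3 were called in either direction against total B cells. The part of these markers in the PD-1 ligand values was not tested. Of 10 macrophage and monocyte markers, Adgre1 and Cd68 were kept, with a summed level of 115.7 to 220.8 in IL-10+ cells, 128.7 to 239.8 in IL-10- cells and 100.9 to 105.6 in total B cells, and neither passed between the sorted fractions (adjusted p 0.945 and 0.858). Of 8 natural killer cell markers with a probe Prf1 alone was kept, at 1589 to 7501, 3349 to 7079 and 4136 to 5757 in IL-10+, IL-10- and total B cells, with an adjusted p of 0.314 between the sorted fractions. None of 5 neutrophil markers with a probe was kept.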

How the data were processed

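RNA of 10 samples was hybridised to Illumina mouse beadchips. The deposited table gives mean bead intensity per probe, exported with GenomeStudio 1.9.0 without normalisation, per the file headers. Other deposited columns hold the bead-to-bead SD and the bead number. The deposited detection score increases with brightness, and 1 minus the score served as detection p. No source used here says if background was subtracted. A deposited table of the authors' log2 values for 9679 probes was not used, since its identifiers could not be paired with the intensity table. The submitters' processing notes also name lumi.

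Intensities were background corrected and quantile normalised with neqc (limma 3.58.1, R 4.3.3; offset 16, background inferred from the detection p). The 16496 of 45281 probes detected (p under 0.01) on 2 or more arrays were kept. All 10 arrays and 3 groups entered 1 two-sided lmFit and eBayes fit by probe (7 residual degrees of freedom), with Benjamini-Hochberg adjustment over all kept probes. Where no array of a group detected a gene, an "at least" fold was computed from the other group's mean against the higher of the probe's own signal and the lowest detected signal per array. The fit was also run on simulated data with independent noise per probe. These held no slide, pairing or brightness effect, so that run says nothing about such effects here.

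Members and lists were chosen with earlier results of these data known. Named were all members, up to 4 called genes per list between IL-10+ and IL-10- cells by smallest p (2 where none was called), and the 3 genes most correlated with each member. Genes known only by clone, LOC, Gm or Rik names were left out of the correlations. Deviations from the group means correlated at 0.352, 0.230 and 0.328 between IL-10+ and IL-10- replicates 2, 3 and 5, so the numbers in the titles were taken to pair these samples. Arrays of a shared number also lie on the same slide. Differently numbered arrays correlated at -0.013 to 0.071 on slide 1, and those on slide 2, replicate 4 of IL-10+ and 5 of IL-10- cells, correlated at 0.283. The main fit, which gave the calls and the shares of all tested probes, had no pair term, and pairs entered only in the replicate block. Alternatives covered background, scaling, offset, filter, probe choice, slide, replicate block, arrays fitted and omission of each array. Sequences are from RefSeq tables of GRCm38.p6, and the probes' own sequences were not used here. One gene named by the rule is not reported here.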

Additional observations from a re-analysis of the deposited data

Results flagged for a closer look

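Cd274 in IL-10+ replicate 1 stood at 12.095 on the log2 scale, apart from the other 4 IL-10+ arrays at 12.74 to 13.00. Its gap to the nearest of them was a larger part of the range of the 5 arrays than Dixon's test allows at the 95% level. Chance gives such a value in about 1 in 20 groups. The IL-10+ arrays of all 8 tested checkpoint probes were screened in this way, and only Cd274 passed, at a ratio of 0.713 against a limit of 0.71. Replicate 1 has no IL-10- array of the same number.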

How the results depend on the processing

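No called result reversed. Among 16496 probes, 2755 differed between IL-10+ and IL-10- cells (1439 higher, 1316 lower), 3405 between IL-10+ and total B cells (1783 and 1622) and 2182 between IL-10- and total B cells (1134 and 1048), with 3, 5 and 4 checkpoint probes. Scaling arrays to a common median, which moved the median of all tested probes to 0.49, 0.22 and -0.29, gave 4244 (4138 higher, 106 lower), 1891 (1433 and 458) and 1170 (161 and 1009), and 2 checkpoint probes between IL-10- and total B cells. IL-10+ and IL-10- cells differed in 942 probes (595 and 347) within slide 1 and 1113 (828 and 285) within slide 2, where 1 checkpoint probe passed. The replicate block, with 3 pairs, left 1578 differences (850 and 728) between the sorted fractions. IL-10+ and total B cells share 2 replicate numbers, but those arrays lie on different slides. Their deviations correlated at -0.098 and -0.028. Deviations of 2 total B arrays from their own mean mirror each other, so these values cannot show whether the numbers pair the samples. A block on the number left 1292 differences (745 and 547), ended the Cd274 call, at 0.0968, and put Pdcd1lg2 past the threshold, at 0.0287. Fitting only the arrays compared gave 540 probes (302 and 238) and 2 checkpoint probes between IL-10- and total B cells. Leaving out each array in turn gave 1729 to 2684 probes and 1 to 3 checkpoint probes between IL-10+ and IL-10- cells, lowest without IL-10- replicate 2, which left Ctla4 alone. For IL-10+ against total B cells it gave 1318 to 3218 probes and 3 to 6 checkpoint probes, lowest without total B replicate 1. Without total B replicate 2 that comparison had 1654 probes. For IL-10- against total B cells it gave 537 to 2222 probes and 1 to 4 checkpoint probes, with 537 without total B replicate 1 and 655 without replicate 2, and 1 checkpoint probe in each case. Where 1 total B array remained, its spread was taken from the other groups. IL-10- and total B cells share 1 replicate number, so they have no replicate block. Without the filter on dim probes, Pdcd1 differed by 0.21 between IL-10+ and IL-10- cells, with an adjusted p of 0.630. Of the called genes named from the lists and markers, 25 in all, 9 lost the call under median scaling, 6 within slide 1, 14 within slide 2 and 6 under the replicate block. The causes of these shifts were not tested. Signal near background limits Pdcd1 and the total B level of Lag3.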
